A study of Mus musculus with 6 samples.

Results

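Collagens, other extracellular matrix genes and markers of the mesenchymal cells that make them, 43 genes in all, were read from RNAseq counts of WT and *Slc37a2* KO cultures. The genes were taken by name from a list of symbols, by a rule that uses no measured value. The list was chosen with earlier results of these data known. All 43 were found among the 22601 genes of the count table, and 41 passed the filter on low counts, beside 13483 genes tested in all. The study asked whether loss of *Slc37a2*, a sugar transporter of the osteoclast secretory lysosome, changed gene expression. The labels describe bone marrow macrophages of 3 WT and 3 KO mice turned into osteoclasts over 5 days with RANKL at 10 ng/ml and M-CSF at 2 ng/ml, the cytokines that drive osteoclast formation. The study's Results also describe the RNAseq as done on osteoclasts of both genotypes, while its RNAseq methods describe RNA from whole femurs and tibias. The RNA source is taken here from the labels. KO mice carried the gene-trap allele *Slc37a2* tm2a(KOMP)Wtsi, made from a single embryonic stem cell clone, on both chromosomes and in every cell type. WT mice carried no such allele, and the mice of both genotypes were on the C57BL/6N background. The column headings give an age of 11 weeks and all carry the letter F. The study's RNAseq methods name male and female mice. Libraries are named here by the identifier in their heading, K090, L080 and L082 for WT and K089, L078 and L081 for KO.

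Osteoclasts are macrophage-derived cells that dissolve bone, and the collagen they degrade is laid down by another lineage, the mesenchymal cells that become osteoblasts, fibroblasts and smooth muscle. A collagen is built as a trimer of chains in the endoplasmic reticulum, trimmed outside the cell, assembled into fibrils or networks, and crosslinked by copper-dependent lysyl oxidases. Marrow plated for macrophage culture also contains adherent stromal cells, and the list holds the genes by which such cells are usually recognised. Not all of them are specific to such cells. *Spp1*, which encodes osteopontin, is also made by osteoclasts and macrophages, and *Fn1*, which encodes fibronectin, is also made by macrophages.

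Library totals ran from 27552183 to 42522292 counts, with TMM factors (edgeR's scaling for composition) of 0.931 to 1.06. Levels are TMM-scaled CPM, a gene's counts relative to its library's total, and the 43 genes took 0.633% to 1.22% of a library's counts. *Slc37a2* itself was at 2149 ± 292 CPM in WT and 38.1 ± 6.66 CPM in KO (SD, n = 3 each), a log2 fold change of -5.82 (SE 0.20, adjusted p = 7.07e-04, Benjamini-Hochberg, from the quasi-likelihood test of edgeR). It was the only gene called of 13483, or 0.00742% of them. Osteoclast markers were high in each library, with *Acp5*, *Ctsk* and *Mmp9* alone at 342422 to 498611, 299904 to 517568 and 666346 to 880682 counts. The osteoblast marker *Bglap* had 2 counts in all 6 libraries together and *Bglap2* had 1.

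For each of the collagen and matrix genes tested, the WT and KO libraries overlapped, and none was called different. Of the 41 genes tested, 0 were called at an adjusted p below 0.05, and the smallest adjusted p was 0.969 (edgeR's quasi-likelihood test, Benjamini-Hochberg adjustment over all 13483 genes). The DESeq2 Wald test also called 0 of the 41. None reached an unadjusted p below 0.05 either, against 0.712% of all genes tested, and the smallest unadjusted p in that fit of 3 against 3 libraries was 0.118, for *Spp1*. The WT and KO values overlapped for each of the 41 genes, while 4.31% of all genes tested had genotypes that did not overlap. In these bulk libraries, fewer cells of a type and less RNA per cell cannot be told apart.

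Most estimates were negative, with wide errors. The log2 fold change, KO over WT, was negative for 39 of the 41 genes and positive for 2, *Spp1* and *Mgp*, where 56.2% of all genes tested were negative. The median was -0.28 over these genes and -0.02 over all genes tested, and single genes ran from -0.75 (*Igfbp5*) to 0.49 (*Spp1*). Their median standard error was 0.50 on the log2 scale, against 0.14 over all genes. The 95% confidence interval lay within a log2 fold change of 1.5 either way for 23 of the 41 genes (56.1%), against 90.8% of all genes tested, and for the others the interval reached past that size. The highest of the 6 libraries was a median of 3.25 times the lowest for these genes and 1.34 times for all genes tested. Within a genotype, the highest library was a median of 2.15 times the lowest in WT and 2.95 times in KO. Over the 6 libraries, 26 of the 41 spanned more than 3-fold, against 10.4% of all genes.

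**Figure D1:**
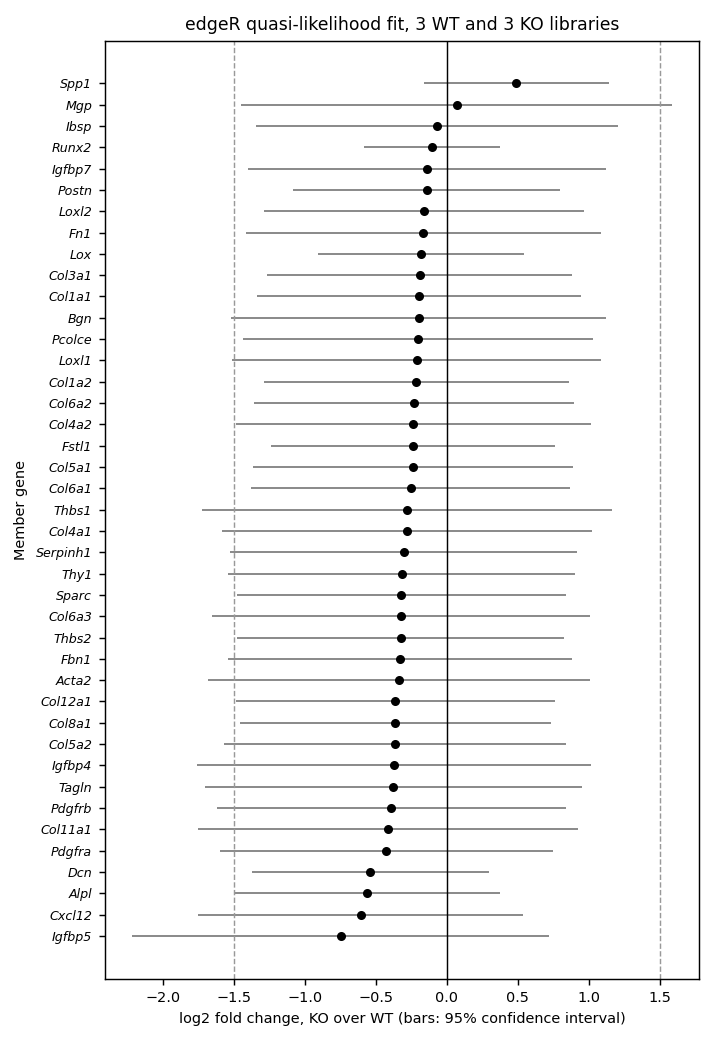
Log2 fold change, KO over WT, of the 41 tested genes (points) with 95% confidence intervals (bars) from the quasi-likelihood fit of 3 WT and 3 KO libraries, ordered by estimate. Every interval crosses 0, and the dashed lines mark 1.5 either way; *Spp1* is highest at 0.49 and *Igfbp5* lowest at -0.75.

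The fibrillar collagens, which form the rope-like fibrils of bone, tendon and skin, were led by type I collagen. *Col1a1* (chr11:94936224-94953042, plus strand, mouse build GRCm38, 51 exons in the longest transcript) encodes the alpha 1 chain. Its level was 371, 569 and 762 CPM in WT K090, L080 and L082 and 329, 862 and 295 CPM in KO K089, L078 and L081, or 567 ± 196 CPM in WT and 495 ± 318 CPM in KO (SD, n = 3 each). KO L078 was the highest of the 6 libraries and the other KO pair the lowest, so the log2 fold change was -0.19 (SE 0.47) with a 95% interval of -1.33 to 0.95. *Col1a2* (chr6:4504814-4541544, plus strand) encodes the alpha 2 chain that joins it in the type I trimer. It stood at 323, 469 and 597 CPM in the WT libraries, in the same order, and 272, 685 and 241 CPM in the KO libraries, with a log2 fold change of -0.21 (SE 0.44). The libraries thus fell in the same order for both chains, with KO L078 first and KO L081 last.

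The minor fibrillar chains showed this order or one close to it, except for *Col11a1*. *Col3a1*, the chain of the type III collagen of soft tissues, had 53.4, 69.5 and 108 CPM in WT and 47.4, 113 and 41.1 CPM in KO. Type V collagen nucleates type I fibrils, and its *Col5a1* chain had 100.4, 158 and 214 CPM in WT and 93.0, 229 and 78.5 CPM in KO, a log2 fold change of -0.24 (SE 0.47). For its *Col5a2* chain the values were 129.8, 209.7 and 296 CPM in WT and 111, 288 and 93.0 CPM in KO, a log2 fold change of -0.37 (SE 0.50), and here WT L082 exceeded KO L078. *Col12a1*, a collagen that binds to the surface of fibrils, had 73.1, 129.6 and 161 CPM in WT and 69.9, 159 and 53.7 CPM in KO, a log2 fold change of -0.36 (SE 0.47). *Col11a1*, the cartilage fibril chain, was far lower, at 0.784, 1.98 and 2.92 CPM in WT and 1.65, 1.84 and 0.707 CPM in KO. Summed over the 7 fibrillar and fibril-associated genes, libraries ran from 803 CPM in KO L081 to 2338 CPM in KO L078, so both ends of the range were KO libraries.

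A promoter window of *Col1a2* is shown as an example of a gene that varied with the other collagens. It is the RefSeq GRCm38.p6 window from 250 bases before to 50 bases after the RefSeq start, and it lies inside the GENCODE M21 gene given above, which begins further upstream. The window is chr6:4505368-4505667 on the plus strand, with each CCAAT or its reverse complement ATTGG in capitals.
Col1a2: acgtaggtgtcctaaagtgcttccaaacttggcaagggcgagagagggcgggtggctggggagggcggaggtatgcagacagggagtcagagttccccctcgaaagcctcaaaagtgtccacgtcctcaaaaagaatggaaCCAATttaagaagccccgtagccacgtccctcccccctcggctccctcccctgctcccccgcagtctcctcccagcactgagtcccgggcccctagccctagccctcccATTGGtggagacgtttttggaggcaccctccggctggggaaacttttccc
CCAAT, read on both strands, is the letters bound by the general factor NF-Y. Of 43 members, 28 matched a RefSeq promoter table, with 32 windows in all. CCAAT in either direction occurred in 8 of the 32 windows (25.0%) and in 37.4% of all 32851 windows of the table. TATAAA, on either strand, occurred in 7 of the 32 (21.9%) and in 13.6% of all windows. A match is a description of letters in these windows, and none of the reads bear on binding.

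Network collagens behaved like the fibrillar ones. *Col4a1* and *Col4a2* encode the paired chains of the type IV collagen sheet in basement membranes. They lie head to head on chromosome 8, *Col4a1* at chr8:11198423-11312826 on the minus strand and *Col4a2* at chr8:11312805-11449287 on the plus strand, so their annotated ends overlap by 22 bases. Without the counting strand, which is not given in the sources used here, reads in that overlap cannot be assigned to one gene. *Col4a1* had 81, 138 and 184 CPM in WT and 74.1, 202 and 54.3 CPM in KO, a log2 fold change of -0.28 (SE 0.54). For *Col4a2* the levels were 57.7, 93.2 and 113 CPM in WT and 50.8, 136 and 36.2 CPM in KO. Libraries were ordered identically by both chains.

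The shared promoter of the type IV pair is shown from the *Col4a1* side, as chr8:11312777-11313076 read on the minus strand from the same RefSeq table, with the CCAAT complement ATTGG in capitals.
Col4a1: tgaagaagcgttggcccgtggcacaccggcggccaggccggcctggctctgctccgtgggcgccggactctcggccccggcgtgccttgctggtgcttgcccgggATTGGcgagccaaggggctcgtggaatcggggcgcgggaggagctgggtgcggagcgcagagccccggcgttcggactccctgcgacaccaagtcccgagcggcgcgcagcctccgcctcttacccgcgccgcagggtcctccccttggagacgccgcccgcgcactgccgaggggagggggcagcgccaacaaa
The window spans the start of both genes, and CCAAT was also matched in the *Col4a2* window.

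Type VI collagen, which forms beaded microfibrils around cells, is made of the chains *Col6a1*, *Col6a2* and *Col6a3*. *Col6a1* (chr10:76708792-76726168) had 69.7, 90.5 and 102 CPM in WT and 45.7, 133 and 40.9 CPM in KO. Its neighbour *Col6a2* (chr10:76595762-76623630), 85161 bases away on the same minus strand, had 40.8, 51.2 and 58.6 CPM in WT and 26.8, 77.5 and 23.5 CPM in KO. Both of these chains had all 3 WT libraries above KO K089 and L081 and below KO L078. *Col6a3* (chr1:90765923-90843971) had 100.4, 163 and 215 CPM in WT and 85.9, 237 and 58.0 CPM in KO, a log2 fold change of -0.32 (SE 0.55). *Col8a1*, a short-chain network collagen of vessel walls, had 12.6, 25.9 and 30.5 CPM in WT and 13.7, 28.6 and 11.1 CPM in KO. The 6 network and microfibril collagens together ran from 224 CPM in KO L081 to 814 CPM in KO L078.

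Among the 5 listed enzymes and chaperones that act on collagen, *Lox* varied less than the others. *Serpinh1* (chr7:99345376-99353239) encodes HSP47, the collagen chaperone of the endoplasmic reticulum, and had 91.4, 158 and 237 CPM in WT and 89.7, 226 and 77.2 CPM in KO, a log2 fold change of -0.30 (SE 0.51). *Lox*, the founding lysyl oxidase, had 93.9, 160.1 and 179 CPM in WT and 100.5, 173 and 108 CPM in KO, with a log2 fold change of -0.18 (SE 0.30) and the narrowest interval of these enzymes, -0.91 to 0.55. Its libraries spanned 1.90-fold, less than the collagens, with both low KO libraries above WT K090. The related oxidases were lower, *Loxl2* at 24.8, 41.8 and 56.0 CPM in WT and 27.0, 61.3 and 20.9 CPM in KO. *Loxl1*, which acts mainly on elastic fibres, had 16.5, 21.2 and 30.1 CPM in WT and 11.7, 36.9 and 9.54 CPM in KO. *Pcolce*, an enhancer of the protease that trims procollagen, ran from 7.39 CPM in KO L081 to 26.5 CPM in KO L078.

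**Figure D2:**
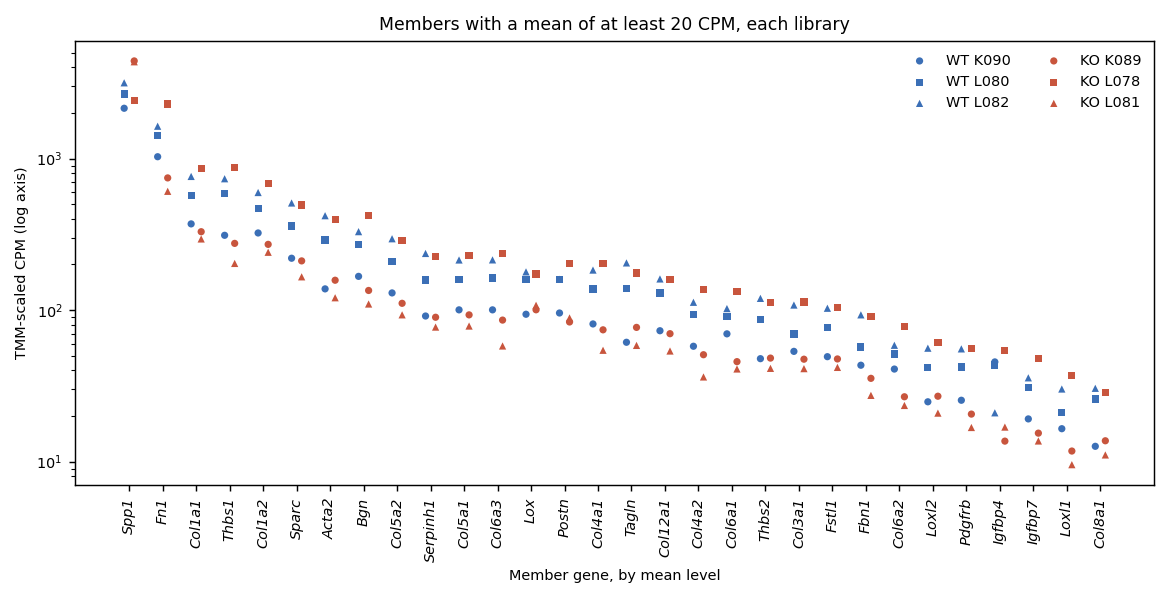
TMM-scaled CPM (log axis) of the 30 genes with a mean of at least 20 CPM, ordered by mean, with 1 point for each library. For nearly all of them KO L078 and WT L082 are at the top and KO L081 near the bottom; *Spp1*, at the left, has KO K089 and L081 above all 3 WT libraries and KO L078 among the WT libraries.

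Glycoproteins included the largest single contributor after *Spp1*. *Fn1* (chr1:71585520-71653200) encodes fibronectin, an adhesive protein that macrophages also make. Its level was 1029, 1421 and 1635 CPM in WT and 746, 2292 and 608 CPM in KO, or 1362 ± 308 CPM in WT and 1215 ± 935 CPM in KO (SD, n = 3 each). The log2 fold change was -0.16 (SE 0.52), and the KO libraries alone spanned 3.77-fold. *Fbn1*, the fibrillin of elastic microfibrils, had 43.3, 57.0 and 93.0 CPM in WT and 35.5, 90.5 and 27.4 CPM in KO. *Mgp*, an inhibitor of calcification, was near 7 CPM in both genotypes but with unlike spreads, 7.03, 6.47 and 7.74 CPM in WT and 3.74, 15.5 and 2.83 CPM in KO, and its log2 fold change was 0.07 (SE 0.63). Elastin was hardly detected: *Eln* had 3, 3 and 3 counts in WT and 2, 1 and 5 counts in KO, and was not tested.

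Matricellular proteins, which sit in the matrix and modulate adhesion, held several of the more abundant genes. *Sparc* (chr11:55394500-55423183), osteonectin, had 219.9, 359 and 509 CPM in WT and 211, 494 and 166 CPM in KO, a log2 fold change of -0.32 (SE 0.48). *Thbs1* (chr2:118111876-118127133), thrombospondin 1, had 312, 592 and 736 CPM in WT and 276, 872 and 203 CPM in KO, a log2 fold change of -0.28 (SE 0.60). Its 4.29-fold range was wider than that of type I collagen, again between KO libraries. *Thbs2* had 47.8, 86.5 and 119.5 CPM in WT and 48.2, 113 and 41.3 CPM in KO. *Postn*, periostin of the periosteum and ligament, had 95.7, 159 and 159.8 CPM in WT and 83.5, 202 and 88.8 CPM in KO, a log2 fold change of -0.14 (SE 0.39). *Fstl1*, a secreted follistatin-like protein, had 49.3, 76.5 and 103 CPM in WT and 47.6, 104 and 41.9 CPM in KO. None of these 5 separated the genotypes.

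The small leucine-rich proteoglycans bind collagen fibrils, and they were very unequal in level. *Bgn*, biglycan on chromosome X (chrX:73483602-73495933), had 167, 269.6 and 329 CPM in WT and 135, 422 and 109.7 CPM in KO, a log2 fold change of -0.20 (SE 0.55). *Dcn*, decorin, one of the most abundant transcripts of many fibroblasts, had only 3.11, 1.48 and 2.70 CPM in WT and 1.32, 2.2 and 1.48 CPM in KO, from 36 to 127 counts a library. *Lum*, lumican, which lies 46984 bases from *Dcn* on chromosome 10, had 1, 1 and 2 counts in WT and 0, 1 and 2 counts in KO, and was not tested. The 0, in KO K089, allows a level of up to 0.102 CPM, counting error alone considered.

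IGF-binding proteins, which carry insulin-like growth factors, departed from the common order. *Igfbp4* had 45.5, 43.5 and 21.0 CPM in WT and 13.7, 54.0 and 16.9 CPM in KO, so that WT L082, high for the collagens, was the lowest WT library here. *Igfbp5* had 1.62, 4.81 and 9.47 CPM in WT and 3.19, 4.04 and 2.16 CPM in KO. It had the most negative estimate, -0.75 (SE 0.61) with an interval of -2.22 to 0.72, and WT L082 alone lay above 5 CPM. *Igfbp7* had 19.1, 30.7 and 35.7 CPM in WT and 15.4, 48.1 and 13.7 CPM in KO, in the order of the collagens.

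Among genes that mark the mesenchymal cells themselves, the contractile proteins were the highest. *Acta2*, smooth muscle actin, a marker of myofibroblasts and pericytes, had 138, 291 and 419.8 CPM in WT and 157, 395 and 121 CPM in KO, a log2 fold change of -0.33 (SE 0.56). *Tagln*, transgelin, had 61.3, 138 and 205 CPM in WT and 76.9, 176 and 58.5 CPM in KO, a log2 fold change of -0.38 (SE 0.55). In both, WT L082 was the highest library and KO L078 the next. *Pdgfrb*, the PDGF receptor of pericytes, had 25.4, 42.0 and 55.5 CPM in WT and 20.6, 55.8 and 16.8 CPM in KO. *Pdgfra*, the receptor of fibroblast progenitors, was at 1.45 to 4.72 CPM, and *Cxcl12*, the chemokine of marrow reticular cells, at 1.84 to 6.90 CPM. *Thy1*, a surface marker of fibroblasts, did not exceed 0.899 CPM.

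The osteoblast lineage genes were low apart from *Spp1*. *Runx2*, the factor that commits cells to bone formation, was the steadiest of the 41 at 12.8, 15.2 and 12.9 CPM in WT and 10.8, 16.5 and 10.6 CPM in KO, a 1.55-fold range. *Alpl*, the alkaline phosphatase of mineralising cells, ran from 2.62 to 7.48 CPM. *Ibsp*, bone sialoprotein, had 6 to 31 counts a library, at 0.220 to 0.706 CPM. *Spp1* (chr5:104435118-104441050) lies 123648 bases from *Ibsp* on the same strand, and was the highest of the 43. It had 2149, 2666 and 3163 CPM in WT and 4412, 2428 and 4354 CPM in KO, or 2659 ± 507 CPM in WT and 3731 ± 1129 CPM in KO (SD, n = 3 each), a log2 fold change of 0.49 (SE 0.27) with an interval of -0.16 to 1.14. KO K089 and L081 exceeded all WT libraries, whereas KO L078 lay between WT K090 and L080.

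The promoter window of *Spp1* is shown because *Spp1* is the member that varied against the rest. It is chr5:104434861-104435160 on the plus strand (RefSeq GRCm38.p6), the first of the windows listed for the gene, with TATAAA and the CCAAT complement ATTGG in capitals.
Spp1: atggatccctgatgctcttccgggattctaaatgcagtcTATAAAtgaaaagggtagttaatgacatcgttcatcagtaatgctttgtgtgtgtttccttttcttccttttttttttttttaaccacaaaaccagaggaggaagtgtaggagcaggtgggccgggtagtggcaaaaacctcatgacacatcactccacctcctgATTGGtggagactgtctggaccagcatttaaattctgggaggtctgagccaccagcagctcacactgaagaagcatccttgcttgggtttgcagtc
TATAAA starts 211 bases before the annotated start, and ATTGG 46 bases before it.

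Per kilobase of the longest GENCODE M21 transcript, a scale that allows genes to be compared, *Spp1* had the highest mean level at 2120 CPM per kb. Next came *Fn1* at 155, *Sparc* at 142 and *Acta2* at 125 CPM per kb, followed by *Bgn* at 98.7 and *Col1a1* at 89.6 CPM per kb. The lowest were *Lum* and *Eln*, then *Col11a1*, *Ibsp*, *Thy1* and *Pdgfra*, the highest of these being *Pdgfra* at 0.363 CPM per kb, with *Dcn* at 1.17 CPM per kb. Contractile, fibronectin and type I collagen transcripts therefore stood far above those of decorin, lumican and elastin in all 6 libraries.

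Count ratios between many of the genes varied far less than their levels, those between chains of 1 collagen type among them. The count ratio of *Col1a1* to *Col1a2* lay between 1.15 and 1.28 in the 6 libraries (coefficient of variation 3.67%), although *Col1a1* itself spanned 2.92-fold. *Col6a1* to *Col6a2* was the tightest, 1.71 to 1.77 (1.42%). *Col4a1* to *Col4a2* ran from 1.40 to 1.63, and *Col6a3* to *Col6a1* from 1.42 to 2.10, the loosest of these pairs. Genes that share no trimer could be as steady: the coefficient of variation was 6.38% for *Col3a1* to *Col1a1*, 6.82% for *Sparc* to *Col1a1* and 7.96% for *Serpinh1* to *Col1a1*, against 5.08% for *Col4a1* to *Col4a2*, 5.96% for *Col5a1* to *Col5a2* and 15.1% for *Col6a3* to *Col6a1*. Per kilobase the mean ratio was 1.10 for *Col1a1* to *Col1a2*, 1.46 for *Col4a1* to *Col4a2*, 0.621 for *Col5a1* to *Col5a2* and 0.704 for *Col6a3* to *Col6a1*, where the type I protein holds more alpha 1 than alpha 2 chains. For *Col6a1* to *Col6a2* it was 1.96 with the longest transcript and 2.54 with all exons, so that value depends on the gene model.

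Of the 5 chain pairs tested, *Col5a1* to *Col5a2* was the one whose genotypes did not overlap. It was 0.773, 0.755 and 0.724 in WT and 0.839, 0.793 and 0.843 in KO, or 0.751 ± 0.0247 and 0.825 ± 0.0278 (SD, n = 3 each). A two-sided exact permutation test of 3 against 3 gave p = 0.1, the smallest it allows, and 0.5 after Benjamini-Hochberg adjustment over 5 pairs. The other 4 pairs gave exact p of 0.4 to 0.9 and 0.9 after adjustment. *Acta2* to *Tagln*, genes on different chromosomes, kept a ratio of 2.05 to 2.25. *Spp1* to *Col1a1* ran from 2.82 in KO L078 to 14.8 in KO L081, and *Igfbp4* to *Col1a1* from 0.0275 in WT L082 to 0.123 in WT K090.

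**Figure D3:**
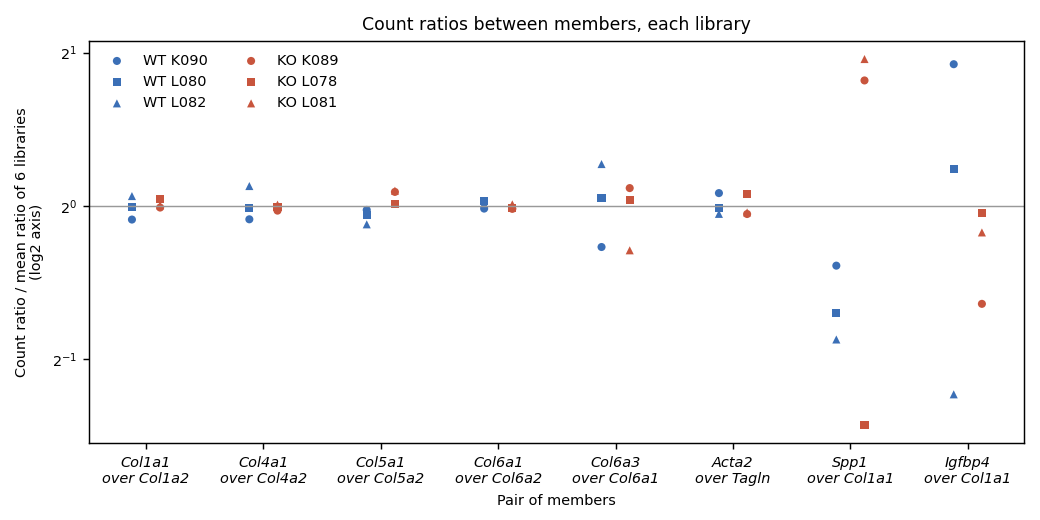
Count ratio of 8 gene pairs in each library, divided by the mean ratio of the 6 libraries (log2 axis, grey line at the mean), blue for WT and red for KO. Collagen chain pairs and *Acta2* over *Tagln* stay near the line, with *Col6a3* over *Col6a1* wider (1.42 to 2.10 before division), while *Spp1* over *Col1a1* (2.82 to 14.8) and *Igfbp4* over *Col1a1* (0.0275 to 0.123) spread widely.

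Most of the genes varied together across libraries, with both genotypes at the top of the order. As the log2 deviation of each gene from its mean over the 6 libraries, the median over the 41 genes was -0.39, 0.30 and 0.68 in WT K090, L080 and L082 and -0.54, 0.77 and -0.83 in KO K089, L078 and L081. KO L078 was the highest library for 22 genes and WT L082 for 17, with WT K090 highest for *Dcn* and KO K089 for *Spp1*. KO L081 was the lowest for 33 genes, KO K089 for 5 and WT K090 for 3. The libraries L078, L082 and L080 were the 3 highest for 36 of the 41 genes, against 8.89% of all genes tested. Of those 3 libraries, 1 is KO and the others are WT.

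Likeness to this common profile is given as a description over 6 libraries, in which genes share a library's depth and scaling. Pearson's r of a gene's log2 level with the median of the other members was above 0.9 for 32 genes and above 0.8 for 36. *Col5a1* and *Col4a1* followed it most closely (r = 0.998 each). The exceptions below 0.5 were *Ibsp* (0.46), *Dcn* (0.40) and *Spp1*, which was the only one to go against it (-0.54), and *Igfbp4* was at 0.53. *Ibsp* and *Dcn* rest on at most 31 and 127 counts a library, but *Igfbp4* and *Spp1* had at least 372 and 75465.

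**Figure D4:**
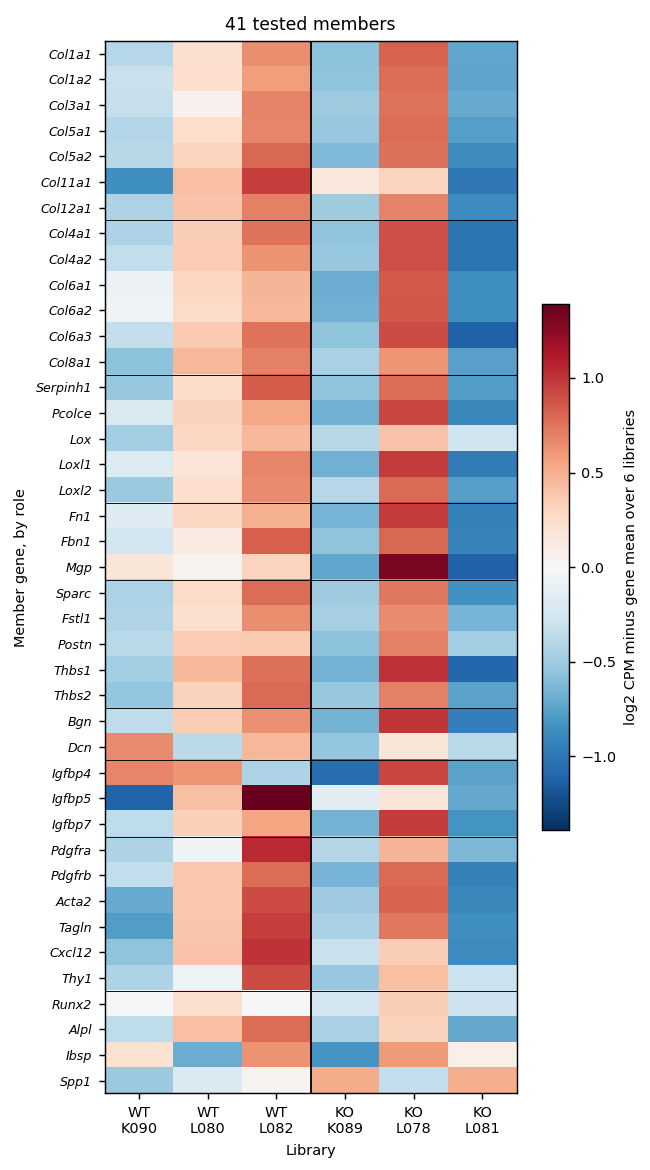
Log2 CPM of each of the 41 tested genes minus its mean over the 6 libraries (red above, blue below), by role from fibrillar collagens at the top to osteoblast lineage genes at the bottom, WT left of the vertical line and KO right. The columns of KO L078 and WT L082 are red and those of KO K089 and L081 blue (medians 0.77, 0.68, -0.54 and -0.83); the bottom row, *Spp1*, has the opposite colours in KO.

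Summed over all 43 genes, the libraries were at 6086, 8839 and 11003 CPM in WT and 7763, 11475 and 7140 CPM in KO, a 1.89-fold range. Without *Spp1*, *Fn1*, *Thbs1* and *Sparc*, 4 of the most abundant, the sums were 2377, 3801 and 4960 CPM in WT and 2119, 5388 and 1809 CPM in KO, a 2.98-fold range. In both sums KO L078 was highest, followed by WT L082 and L080. The order of the other 3 depended on those genes: with them WT K090 was the lowest, and without them KO L081.

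How the genotypes compared depended most on 1 KO library. Without KO L078, the median log2 fold change of the 41 genes was -0.97, and 29 of them (70.7%) had an unadjusted p below 0.05 by the same test, when 20.1% of all genes tested did. None was called even so, and the lowest adjusted p was 0.227. The lowest unadjusted p in that fit was 0.00102, for *Col6a2*. Leaving out WT L082 gave a median of 0.03, with 14 genes lower and 27 higher, and leaving out KO L081 or KO K089 gave 0.01 and -0.03. Without WT K090 the median was -0.47 and *Igfbp5* alone had an unadjusted p below 0.05, and without WT L080 it was -0.26 and *Dcn* alone did. The sign of the estimate changed in at least 1 of these 6 fits for 32 of the 41 genes. The identifiers in the headings start with a letter (the heading letter), K for 1 library of each genotype and L for the others. Within L, *Col1a1* was at 569 and 762 CPM in WT and at 862 and 295 CPM in KO, and within K at 371 CPM in WT and 329 CPM in KO.

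Marker lists of other cells moved with the collagens to unequal degrees. Of 10 marrow stroma and fibroblast markers, 10 were in the table and 8 tested, with 0 called, and their summed level was 61.6, 82.6 and 103 CPM in WT and 61.6, 98.2 and 55.3 CPM in KO. *Prrx1*, a transcription factor of limb mesenchyme, had 13.3, 24.0 and 31.0 CPM in WT and 12.5, 33.2 and 11.0 CPM in KO, in the order of the collagens. *Cdh11*, a mesenchymal cadherin, had 12.6, 21.1 and 27.1 CPM in WT and 10.2, 28.0 and 10.5 CPM in KO. *Kitl*, the stem cell factor and a large contributor to that sum, went the other way, with 26.2, 23.9 and 30.0 CPM in WT and 31.4, 20.9 and 26.5 CPM in KO, lowest in KO L078. *Lepr*, the leptin receptor of marrow reticular stroma, was near absent with 3 to 17 counts a library. The 7 smooth muscle and pericyte markers, 0 of 6 tested called, summed to 39.2, 55.1 and 55.9 CPM in WT and 25.4, 72.2 and 22.9 CPM in KO. Calponin, *Cnn1*, was the highest of them outside WT K090, with 12.1, 27.2 and 30.5 CPM in WT and 12.1, 35.9 and 9.83 CPM in KO, and *Cspg4*, the NG2 proteoglycan, departed from the collagen order with 20.5, 15 and 10.9 CPM in WT and 7.01, 18.1 and 7.95 CPM in KO. *Myh11* and *Rgs5* had at most 43 and 23 counts a library. The part of these cells in the levels of the matrix genes was not tested.

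Cartilage markers (9 of 10 in the table, 3 tested, 0 called) summed to 8.13 CPM in KO L081 and up to 38.9 CPM in KO L078, nearly all of it *Col2a1*, the type II collagen chain, while *Acan* had 1 to 5 counts a library. Osteoblast and osteocyte markers summed to 9.33 to 14.4 CPM (9 of 10 in the table, 4 tested, 0 called), and the defining *Bglap*, *Bglap2* and *Sost* had 2, 1 and 2 counts over all libraries. Endothelial markers were at 3.71 to 6.35 CPM (7 of 8 in the table, 3 tested), skeletal muscle markers at 2.68 to 4.77 CPM (4 of 6, 3 tested) and adipocyte markers at 0.954 to 3.95 CPM (4 of 6, 2 tested), with 0 called in each. The endothelial, skeletal muscle and adipocyte markers were therefore at a few CPM in sum, where the type I collagen chains were at 241 CPM or more.

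The blood-lineage lists went another way. The 10 osteoclast markers, with 0 called and 10 of 10 estimates positive, summed to 38340, 50558 and 57806 CPM in WT and 75628, 41852 and 67298 CPM in KO. That order of libraries, from KO K089 down to WT K090, was also the order of *Spp1*. Of the 10 macrophage markers, 0 were called, with 8 estimates negative and 2 positive. They summed to 8454, 7899 and 5354 CPM in WT and 5743, 7824 and 5879 CPM in KO. *Lyz2*, the macrophage lysozyme, was at 4288, 3561 and 1249 CPM in WT and 1021, 3765 and 1401 CPM in KO, so KO L078 stood with WT K090 and L080 and apart from the other KO libraries. *Csf1r* was instead highest in KO K089, at 1757, 1885 and 1851 CPM in WT and 2096, 1724 and 1971 CPM in KO. *Cd68* was too, at 1454, 1578 and 1864 CPM in WT and 2252, 1491 and 2039 CPM in KO. The macrophage sum thus combines markers with unlike orders of libraries. WT L082 had high collagens with the lowest macrophage sum, and KO L078 high collagens with a high one. The part of these marker genes' cells in the levels of the matrix genes was not tested.

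**Figure D5:**
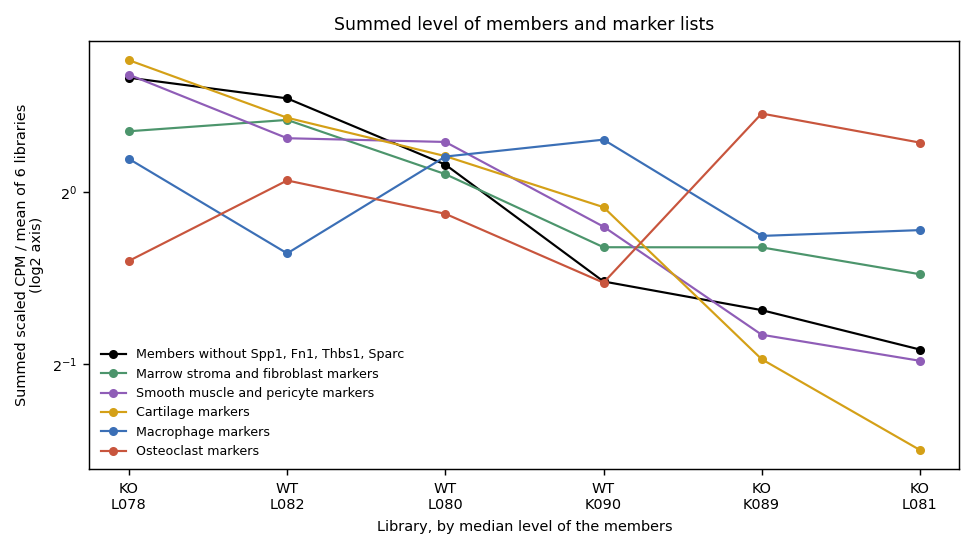
Summed scaled CPM of the matrix genes without *Spp1*, *Fn1*, *Thbs1* and *Sparc* and of 5 marker lists, each divided by its mean over the 6 libraries (log2 axis), with libraries ordered by the median level of the matrix genes and lines joining the points of 1 list. Smooth muscle and cartilage markers descend with the matrix genes (black, 5388 CPM in KO L078 to 1809 CPM in KO L081). Stromal markers are highest in WT L082 (103 CPM) and change less steeply (98.2 CPM in KO L078, 55.3 CPM in KO L081). Osteoclast markers are highest in KO K089 and L081.

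Matrix genes outside the list gave a weaker form of the same picture in some groups and not in others. Of 92 others chosen by name, 88 were in the table and 67 tested, with 0 called. An unadjusted p below 0.05 was found for 1 of the 67, against 0.712% of all genes tested. Of the 67, 51 had negative and 16 positive estimates, and the median log2 fold change was -0.22. Laminins and other basement membrane genes (13 tested, 12 lower) summed to between 360 CPM in KO L081 and 656 CPM in KO L078. Matrix glycoproteins and proteoglycans (21 tested, 19 lower) ran from 680 CPM in KO L081 to 1687 CPM in KO L078. Other enzymes of collagen synthesis (21 tested, 13 lower) summed to 2088 to 2388 CPM, a 1.14-fold range set by a few abundant genes. The prolyl hydroxylase subunit *P4hb* spanned 1.13-fold and the lysyl hydroxylase *Plod1* 1.13-fold, whereas *Plod2*, another lysyl hydroxylase, spanned 3.36-fold and the procollagen protease *Adamts2* 3.96-fold. Of the 21, 12 spanned more than 2-fold. Collagens outside the list (12 tested, 7 lower and 5 higher) summed to between 250.1 CPM in KO K089 and 312 CPM in WT L082, a 1.25-fold range.

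The gene at an unadjusted p below 0.05 was *Vcan*, which encodes the large proteoglycan versican, made by macrophages as well as fibroblasts. It had 32.2, 44.8 and 33.6 CPM in WT and 21.1, 32.1 and 22.6 CPM in KO, and the highest KO library lay just below the lowest WT library. Its log2 fold change was -0.54 (SE 0.20), and it was not called: the quasi-likelihood test of edgeR gave 0.0346 unadjusted and 0.969 as the adjusted p. Genotypes that did not overlap were found for 4.31% of all genes tested. A pair of genes under the filter, not tested, also had KO libraries below all WT libraries: *Omd*, osteomodulin, with 1, 3 and 2 counts in WT and 0 in each KO library, and *Col4a3*, with 4, 4 and 4 counts in WT and 0, 4 and 1 counts in KO. Neither exceeded 4 counts in a library.

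Outside the matrix lists, the 10 genes most like the common profile were *Septin5*, *Phldb2*, *Enah*, *Tbx15*, *Nedd4*, *Cald1*, *Gpx7*, *Ehd2*, *Parva* and *Kctd15*. They were taken from 11819 genes with a mean of at least 1 CPM, by Pearson's r over the 6 libraries, which was 0.9979 or higher for each. *Cald1*, caldesmon of the contractile apparatus, had 72.2, 133 and 165 CPM in WT and 66.7, 179 and 52.7 CPM in KO. *Enah*, an actin regulator at focal adhesions, had 25.6, 41.8 and 54.4 CPM in WT and 24.1, 60.1 and 19.7 CPM in KO. *Tbx15*, a T-box factor of limb and craniofacial mesenchyme, had 5.00, 8.76 and 11.0 CPM in WT and 4.37, 11.6 and 3.61 CPM in KO. An r above 0.9 with the profile was found for 4.79% of those genes.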

How the data were processed

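RNA was sequenced on an Illumina NovaSeq instrument, and the submitters' processing notes name bcl2fastq 2.20.0.422, edgeR 3.30.3 and the build mm10. No source used here names the aligner, the counter or the annotation. Per gene symbol, the authors deposited whole-number read counts, not normalized, with columns of their own comparison (fold changes, mean levels, likelihood ratios and p-values), which were not used. Columns were assigned to genotypes from their headings, which carry no replicate number, and 0 columns belonged to other samples. No pair of libraries was alike within sampling noise, the lowest chi-square per degree of freedom being 7.00.

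Counts of 22601 genes were fitted with edgeR 4.0.16 under R 4.3.3 (filterByExpr defaults, TMM, then glmQLFit and glmQLFTest on genotype), and p-values were adjusted by Benjamini-Hochberg over 13483 genes, with a threshold of 0.05. Steps across all genes were tested on simulated data. Levels are TMM-scaled CPM, and log2 deviations use a prior count of 2. The limit for a count of 0 is 3 counts, and it covers counting error only, since no molecular identifiers were counted and reads may repeat a molecule. Alternatives used DESeq2 1.42.0 (size factors, Wald test), edgeR's likelihood ratio test and robust fit, and other filters and scalings. Others added the heading letter or left out each library in turn. Gene positions came from GENCODE M21 and promoter windows from RefSeq GRCm38.p6, matched by symbol. Figures were drawn with matplotlib 3.10.9 in Python 3.11.15.

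The members and lists were chosen with earlier results of these data known. Values in all 6 libraries are given for members with a mean of at least 20 CPM, for collagen chain pairs and for the lowest members. Of the other matrix genes, those at an unadjusted p below 0.05 or with genotypes that do not overlap are named (tested or not), and of all other genes the 10 most like the members' median profile. Fold changes are printed for the 19 members with a mean of at least 100 CPM, the most negative and the positive ones, a choice made after their values were seen, as were the other marker and context genes named.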

Additional observations from a re-analysis of the deposited data

How the results depend on the processing

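No paired analysis was possible because the columns of the count table carry no replicate numbers. Over the 8 alternatives that kept all libraries, 0 members were called in any, their median log2 fold change stayed between -0.28 and -0.26, and 1 member changed sign (*Mgp*, -0.0371 with the heading letter as an added term). Leaving out 1 library at a time changed more: 0 members were called in each fit, the number at an unadjusted p below 0.05 ran from 0 to 29 (29 without KO L078, and 1 each without WT K090 and WT L080), and the median from -0.97 to 0.03. The log2 fold change then ranged from -0.86 to 0.10 for *Col1a1*, from -0.85 to 0.0625 for *Col1a2*, from -0.88 to 0.0663 for *Col5a1*, from -1.06 to 0.0597 for *Col4a1* and from -1.15 to 0.0370 for *Col6a3*. It ranged from -0.95 to 0.0936 for *Serpinh1*, from -0.47 to 0.0246 for *Lox*, from -1.01 to 0.17 for *Fn1*, from -0.94 to 0.0260 for *Sparc*, from -1.19 to 0.0852 for *Thbs1* and from -0.68 to 0.10 for *Postn*. It ranged from -1.06 to 0.14 for *Bgn*, from -1.18 to 0.00345 for *Igfbp5*, from -1.02 to 0.0864 for *Acta2*, from -0.99 to 0.0790 for *Tagln* and from -1.11 to 0.47 for *Mgp*. Without a change of sign, it ranged from -1.05 to -0.03 for *Col5a2*, from -0.97 to -0.07 for *Col12a1* and from 0.36 to 0.72 for *Spp1*. Without KO L078 the unadjusted p of *Spp1* in the fit across all genes by edgeR was 0.00561. In that fit 20.1% of all genes tested had an unadjusted p below 0.05, and the lowest adjusted p of any member was 0.227. The lowest log2 fold change came without KO L078 for each of the genes named here, apart from *Igfbp5* and *Spp1*. For those it came without WT K090, and the cause was not tested. The order of libraries by summed level kept 3 of 6 libraries in place when *Spp1*, *Fn1*, *Thbs1* and *Sparc* were left out of the sum, and 3 of 6 when the median deviation replaced it. Depth limits *Eln*, *Lum*, *Thy1* and *Ibsp*, which had at most 31 counts in a library.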
